A study of Rattus norvegicus with 9 samples.

Results

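The 5 genes described here mark or drive cell division: Mki67, Top2a, Cdk1, Pcna and Ccnd1. They were chosen by name, as the Ensembl rat gene IDs ENSRNOG00000028137, ENSRNOG00000053047, ENSRNOG00000000632, ENSRNOG00000021264 and ENSRNOG00000020918 in that order. All 5 were found among the 30560 genes of the count tables, with 0 missing, and all 5 were among the 15879 genes that had enough counts to be tested. RNA was sequenced from rat cells that the labels call NRCM and cardiomyocytes, the contracting cells of the heart, in 9 libraries of 3 groups with 3 libraries each. The first group was kept in normoxia. The H/R-DMSO group went through hypoxia and reoxygenation (H/R), which mimic in a dish the stop and return of blood flow to heart muscle. These cells spent 6 h at 0.1% oxygen in medium lacking glucose and pyruvate and were then returned to 21% oxygen for 12 h, in the presence of DMSO, the solvent of the compound. The H/R-AS8351 group had the same steps with 0.5 µM AS8351, an inhibitor of the histone demethylase Kdm5b per the labels, added for the reoxygenation. NRCM commonly stands for neonatal rat cardiomyocytes, and the labels give no other age. They name no allele or strain, and do not state whether DMSO was given in normoxia.

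A dividing cell passes through G1, copies its DNA in S phase, and goes through G2 into mitosis. Ccnd1 encodes cyclin D1, which turns on the kinases Cdk4 and Cdk6 in G1 and responds to growth signals. Pcna is the sliding clamp that holds DNA polymerase on DNA during replication and also serves in DNA repair. Top2a untangles and helps condense chromosomes, Cdk1 is the kinase that starts mitosis, and Mki67 encodes Ki-67, a protein that coats mitotic chromosomes and is the usual stain for cycling cells. RNA of Mki67, Top2a and Cdk1 is known to peak in G2 and mitosis. Cardiomyocytes mostly stop dividing soon after birth, while other cells of the heart can go on dividing in culture.

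Libraries held between 34442733 and 54888975 counts, and the 5 genes had between 996 and 8676 counts in a library, so that counting error alone was between 1.07% and 3.17%. Levels are given in CPM, the count scaled to a common library size, after TMM scaling, so that each value is relative to the other RNA of its library. The coefficient of variation within a group was between 0.903% and 7.14%. In these bulk samples fewer cycling cells and less of an RNA per cell cannot be told apart. The count tables give gene IDs only, so the lists of 24 marker genes for cardiomyocytes and other cell types and of 66 further cell cycle genes, of which 0 could be tied to an ID, are not analysed here. Whether the 3 libraries of a group stem from separate cultures is not stated in the labels, and p-values therefore cover the spread between these samples, part or all of which may be technical.

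H/R-DMSO was first set against normoxia, to see how these genes stood after H/R with the solvent. Of the 5 genes, 4 fell and 0 rose, while 25.2% of all genes tested were called lower and 27.5% higher (adjusted p below 0.05, edgeR quasi-likelihood test). The genes of G2 and mitosis fell most, Cdk1 by 46.3%, Top2a by 44.2% and Mki67 by 40.3%, and Ccnd1 fell by 20.2%. Pcna was not called. For the same 4 genes the libraries of the groups did not overlap in CPM, as for 27.5% of all genes tested in the lower direction. The median change on the log2 scale was -0.75 over the 5 genes and 0.03 over all genes tested.

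Mki67 stood at 158, 169 and 156 CPM in the normoxia libraries, at 93.9, 97.0 and 96.9 CPM with H/R-DMSO and at 112, 123 and 123 CPM with H/R-AS8351. Each normoxia library was above each H/R-AS8351 library, and each of those above each H/R-DMSO library. The fall after H/R was 1.68-fold, or -0.75 in log2 (SE 0.04, adjusted p = 2.02e-18 by edgeR). A lower log2 fold change was found for 7.75% of the genes tested.

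Top2a stood at 128, 125 and 127 CPM in normoxia, at 73.6, 69.9 and 68.5 CPM with H/R-DMSO and at 84.8, 84.5 and 90.6 CPM with H/R-AS8351. The groups took the same order as for Mki67, again without overlap. Top2a fell 1.79-fold after H/R, or -0.84 in log2 (SE 0.04, adjusted p = 6.07e-20 by edgeR). For this enzyme 6.37% of the genes tested had a lower value.

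Cdk1 stood at 50.0, 53.2 and 51.1 CPM in normoxia, at 29.7, 27.7 and 25.7 CPM with H/R-DMSO and at 33.7, 34.6 and 35.0 CPM with H/R-AS8351. The H/R-AS8351 libraries lay close together here, above all H/R-DMSO and below all normoxia libraries. Cdk1 had the lowest counts of the 5 genes and the lowest log2 fold change after H/R, -0.90 (SE 0.06, adjusted p = 8.41e-17 by edgeR), a 1.86-fold fall. The 95% interval of that log2 fold change, -1.02 to -0.78, overlapped those of Top2a, -0.93 to -0.75, and Mki67, -0.83 to -0.66.

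**Figure D1:**
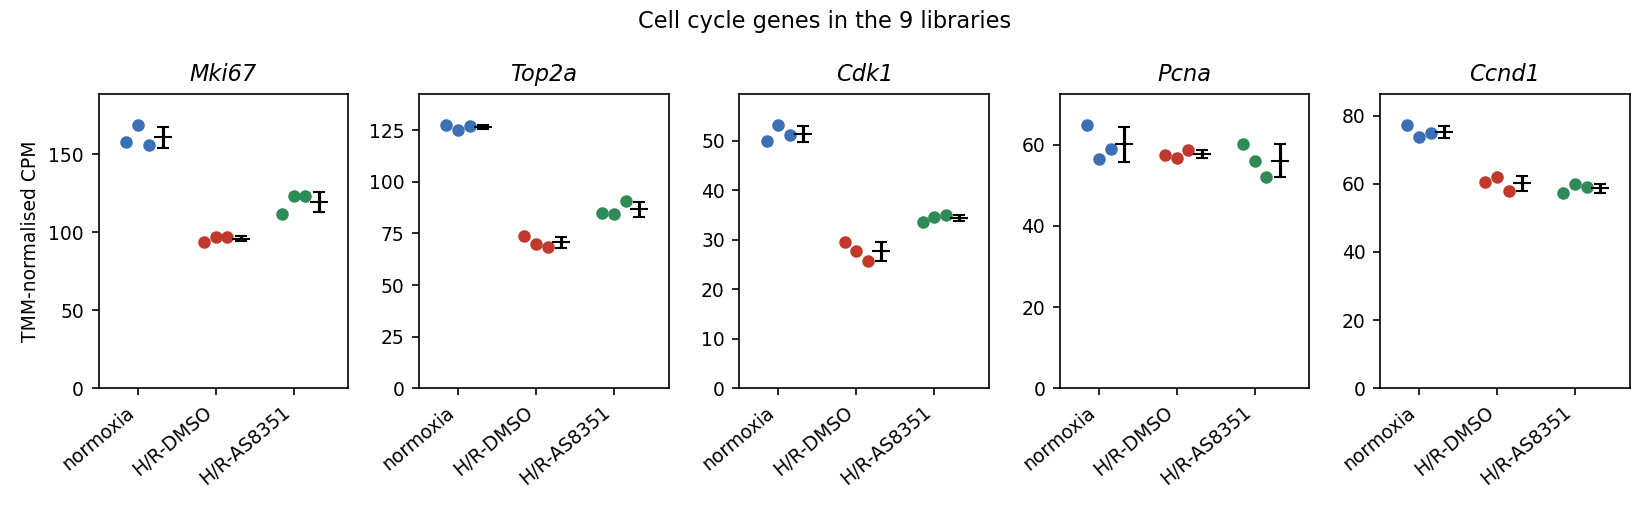
TMM-normalised CPM of the 5 genes in the 9 libraries, 1 panel per gene with its own axis from 0: points are libraries, and black bars are the group mean with its SD (n = 3). Mki67, Top2a and Cdk1 are highest in normoxia, lowest in H/R-DMSO and between them in H/R-AS8351, Ccnd1 is lower in both H/R groups, and the Pcna values of the groups overlap.

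The sequences before the start sites are shown for the genes that moved together, Mki67, Top2a and Cdk1, and for Pcna, which did not move with them. They are RefSeq promoters of assembly GRCr8, whose table holds these 4 of the 5 genes. The windows were searched on both strands, over the 250 bases before the table's start site, for TTTGAA (the CHR element, bound by complexes that time late cell cycle genes), CCAAT (the box bound by NF-Y), TTTNNCGC with each N being C or G (an E2F site), GGGCGG (GC box), TATAAA (a core promoter box), TGACTCA (AP-1) and TGACGTCA (CRE). Capitals mark matches to the CHR element, the NF-Y box and the E2F site on either strand, so that TTCAAA and also ATTGG are matches on the opposite strand. Top2a is given for chr10:84473094-84473343 on the minus strand, Pcna for chr3:139955821-139956070 on the minus strand, and Cdk1 for chr20:19265043-19265251 on the plus strand, which ends at the outermost start listed for that gene. The Mki67 window lies inside a longer listed span of the gene, and 30 bases of it are given, chr1:199952682-199952711 on the minus strand. These 30 bases were chosen to hold its TTTGAA matches, so they do not show how dense matches are over the window.
Mki67: aTTTGAAccgccgttttcgTTTGAATTGGg
Top2a: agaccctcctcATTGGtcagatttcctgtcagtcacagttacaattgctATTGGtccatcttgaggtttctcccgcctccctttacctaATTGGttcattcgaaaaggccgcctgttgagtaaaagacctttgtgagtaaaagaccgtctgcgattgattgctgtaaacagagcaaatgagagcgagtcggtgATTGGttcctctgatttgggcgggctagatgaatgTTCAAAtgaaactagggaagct
Cdk1: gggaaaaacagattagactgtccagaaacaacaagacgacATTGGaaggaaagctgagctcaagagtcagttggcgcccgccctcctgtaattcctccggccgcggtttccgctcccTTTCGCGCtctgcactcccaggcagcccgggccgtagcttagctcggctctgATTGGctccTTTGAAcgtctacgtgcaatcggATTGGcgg
Pcna: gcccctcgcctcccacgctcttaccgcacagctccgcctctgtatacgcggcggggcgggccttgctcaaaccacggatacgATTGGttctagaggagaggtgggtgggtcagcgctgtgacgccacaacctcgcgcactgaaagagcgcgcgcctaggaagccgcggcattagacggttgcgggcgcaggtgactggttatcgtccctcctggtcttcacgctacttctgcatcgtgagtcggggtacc

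In the full windows, TTTGAA was present at 2 places for Mki67, 1 for Top2a, 2 for Cdk1 and 0 for Pcna, and 16.2% of the 33469 promoters of the table held it. CCAAT was present at 4 places for Mki67, 4 for Top2a, 3 for Cdk1 and 1 for Pcna, against 34.0% of promoters with at least 1. Both motifs together were in 5.87% of promoters. In Mki67, 1 of the TTTGAA matches shares a base with ATTGG, as the 30 bases show. The matches of Cdk1 lie 72 to 67 bases before the start, seen in the sequence above, and 16 to 11 bases before it, beyond the printed stretch, and that of Top2a lies 22 to 17 bases before the start. The E2F site was found once, in Cdk1, and in 1.73% of all promoters. GGGCGG was found in all 4 windows, at 4 places in Mki67, some of which overlap, and 1 in each of the others, and in 30.5% of promoters. TATAAA (12.9% of promoters), TGACTCA (4.05%) and TGACGTCA (1.59%) were at 0 places in the 4 windows. A match describes letters and is not evidence that a factor binds there, and the count tables hold no measure of binding.

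Ccnd1 was lower after H/R by less than the genes of G2 and mitosis. It stood at 77.3, 73.8 and 75.0 CPM in normoxia, at 60.6, 62.0 and 57.8 CPM with H/R-DMSO and at 57.2, 59.9 and 59.0 CPM with H/R-AS8351. All libraries of both H/R groups were below all normoxia libraries, and the H/R groups overlapped each other. The fall after H/R was 1.25-fold, or -0.33 in log2 (SE 0.05, adjusted p = 2.28e-07 by edgeR). Scaled to the total count alone, it was -0.16 (adjusted p = 0.0032 by edgeR).

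Pcna stood at 64.9, 56.5 and 59.1 CPM in normoxia, at 57.6, 56.7 and 58.7 CPM with H/R-DMSO and at 60.1, 56.1 and 52.1 CPM with H/R-AS8351. The 3 groups overlapped. The log2 fold change after H/R was -0.06 (SE 0.05, adjusted p = 0.377 by edgeR), with a 95% interval from -0.17 to 0.05. It was -0.0025 without normoxia replicate 1, the highest Pcna library, and -0.11 without normoxia replicate 2, and was not called in either case. A fall of the size seen for Ccnd1 lies outside that interval. Scaled to the total count alone, the value for Pcna was 0.10, with the opposite sign.

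Total count scaling shifted the median log2 change over all genes by 0.16 in this comparison. Such scaling moves all genes by nearly the same amount, so the place of the 4 called genes below the median cannot change with it. Total count scaling also turned the balance of calls over all genes. Of the called genes, 74.3% were higher, against 52.1% with TMM, and 15.8% of the genes tested were called lower. The direction and call of Mki67, Top2a, Cdk1 and Ccnd1 held under total count scaling.

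H/R-AS8351 was next set against H/R-DMSO, to see how the genes stood with the compound after equal H/R. With AS8351, 3 of the 5 genes were higher and 0 lower, while 13.1% of all genes tested were called higher and 9.97% lower (adjusted p below 0.05, edgeR quasi-likelihood test). They were the genes of G2 and mitosis: Mki67 rose by 24.4%, Top2a by 22.6% and Cdk1 by 24.5%. Without replicate 2 of H/R-AS8351, 10.6% of the genes tested were called higher and 6.49% lower, and the same number of the 5 genes was called. The ranges of Mki67, Top2a and Cdk1 did not overlap between the groups, as for 18.2% of all genes tested with higher values. The median log2 fold change was 0.29 over the 5 genes and -0.01 over all genes tested. Scaled to the total count alone, these 3 genes were still called higher, while 41.0% of the called genes were higher, against 56.9% with TMM, and 10.4% of the genes tested were called higher.

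The 3 increases were of like size. The log2 fold change was 0.31 for Mki67 (SE 0.04, adjusted p = 3.75e-07 by edgeR), 0.29 for Top2a (SE 0.05, adjusted p = 2.14e-06 by edgeR) and 0.32 for Cdk1 (SE 0.06, adjusted p = 8.10e-05 by edgeR). Their 95% intervals ran from 0.23 to 0.40, from 0.20 to 0.38 and from 0.19 to 0.44. Between 11.7% and 12.9% of the genes tested had a higher value. This comparison and the one with normoxia above share the H/R-DMSO libraries, so that a deviation of those libraries would move both, in opposite directions.

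Ccnd1 and Pcna were not called with AS8351. The log2 fold change of Ccnd1 was -0.03 (SE 0.05, adjusted p = 0.688 by edgeR), with a 95% interval from -0.13 to 0.06. That of Pcna was -0.04 (SE 0.06, adjusted p = 0.668 by edgeR), with an interval from -0.15 to 0.07. Increases of the size seen for Mki67, Top2a and Cdk1 lie outside both intervals.

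**Figure D2:**
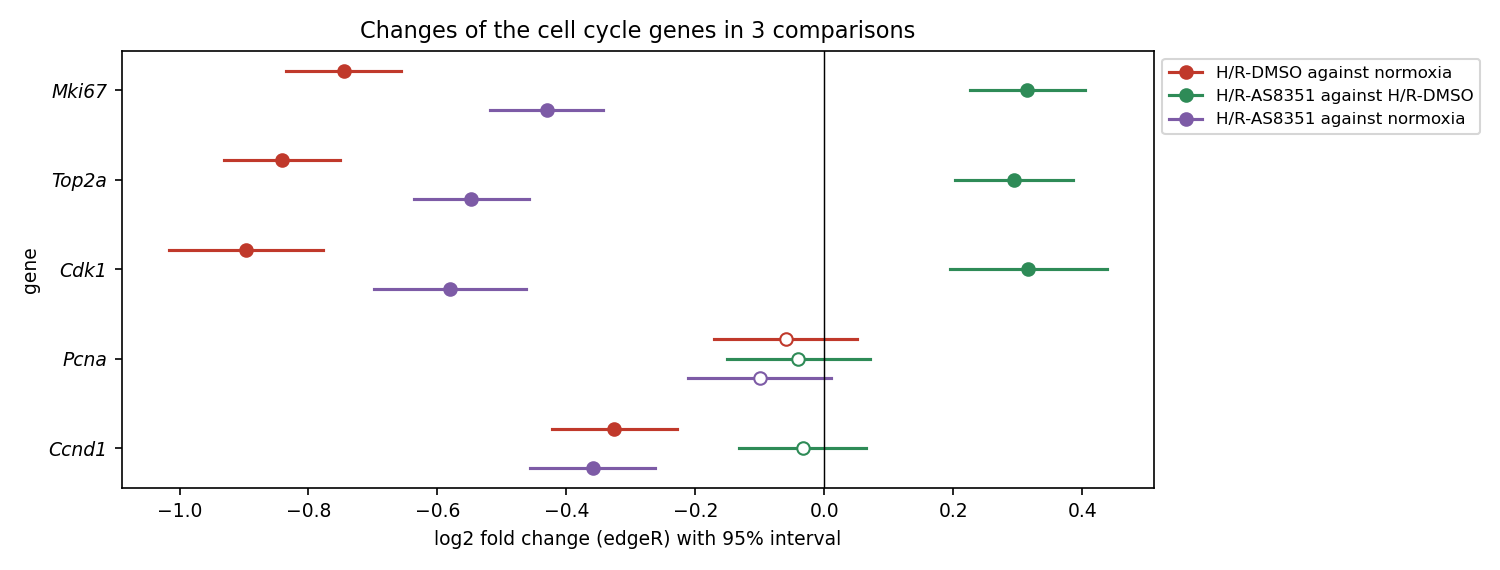
Log2 fold changes of the 5 genes in the 3 comparisons, with 95% intervals from the edgeR fit as horizontal lines: filled points have an adjusted p below 0.05, open points do not. Mki67, Top2a and Cdk1 are below 0 after H/R, above 0 with AS8351 against H/R-DMSO and still below 0 against normoxia, while Ccnd1 is filled in both comparisons with normoxia and Pcna in none.

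H/R-AS8351 was last set against normoxia, to see what was left of the change with the compound present. Here 4 of the 5 genes were lower and 0 higher, while 19.7% of all genes tested were called lower and 19.7% higher (adjusted p below 0.05, edgeR quasi-likelihood test). The ranges of the same 4 genes did not overlap, as for 24.6% of all genes tested with lower values. The median log2 fold change was -0.43 over the 5 genes and 0.01 over all genes tested. Under total count scaling, which moved that median by 0.12, these 4 genes were still called lower, while 76.7% of the called genes were higher, against 49.98% with TMM, and 11.2% of the genes tested were called lower.

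Mki67 was at 74.2% of its normoxia mean with AS8351 and at 59.7% with DMSO. Top2a was at 68.4% with AS8351 and 55.8% with DMSO, and Cdk1 at 66.9% and 53.8%. The log2 fold changes against normoxia were -0.43 for Mki67 (SE 0.04, adjusted p = 5.11e-11 by edgeR), -0.55 for Top2a (SE 0.04, adjusted p = 8.36e-14 by edgeR) and -0.58 for Cdk1 (SE 0.06, adjusted p = 3.93e-11 by edgeR). None of these 3 genes reached the normoxia range in any H/R-AS8351 library.

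Ccnd1 was at 77.9% of its normoxia mean with AS8351 and at 79.8% with DMSO. Its log2 fold change against normoxia with AS8351 was -0.36 (SE 0.05, adjusted p = 4.56e-08 by edgeR), and -0.23 under total count scaling. For Pcna it was -0.10 (SE 0.05, adjusted p = 0.150 by edgeR), with a 95% interval from -0.21 to 0.01. Without replicate 1 of H/R-AS8351, the highest of its group for Pcna, the value was -0.15 and was called (adjusted p = 0.0421 by edgeR). It was -0.042 and not called without normoxia replicate 1 and -0.049 without H/R-AS8351 replicate 3, while total count scaling gave 0.025.

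Whether the 5 genes moved by different amounts was tested with the ratio of 2 genes within a library, which does not depend on the scaling of the library. The ratio itself reflects gene length, so that its change between groups is what can be read. For the 10 pairs, an exact permutation test over the 3 groups, with 280 distinct groupings and a smallest possible p of 0.00357, was adjusted by Benjamini-Hochberg over the 10 pairs. The ratio differed between the groups for 6 pairs, namely those that set Mki67, Top2a or Cdk1 against Pcna or Ccnd1. These pairs share genes, so they are not separate results, and how often pairs of other genes differ was not tested.

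The log2 ratio of Cdk1 to Pcna was -0.38, -0.09 and -0.21 in the normoxia libraries, -0.96, -1.03 and -1.19 with H/R-DMSO, while H/R-AS8351 gave -0.84, -0.70 and -0.58. The 3 groups did not overlap (adjusted p = 0.00714, exact permutation test). The mean changed by -0.84 from normoxia to H/R-DMSO and was 0.36 higher in H/R-AS8351 than in H/R-DMSO. The pairs Mki67/Pcna, Top2a/Pcna, Top2a/Ccnd1 and Cdk1/Ccnd1 had the same adjusted p, with changes after H/R between -0.78 and -0.52.

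For Mki67/Ccnd1 the change after H/R was -0.42, and the test over the 3 groups gave an adjusted p of 0.0298 (exact permutation test). Without normoxia replicate 2 that change was -0.37, and the pair was not called over the 3 groups (adjusted p = 0.0536, exact permutation test). In these 6 pairs the ratio was between 0.33 and 0.36 higher in H/R-AS8351 than in H/R-DMSO on the log2 scale, and the libraries of these groups did not overlap. An exact permutation test of 3 libraries against 3 cannot go below p = 0.1. A change between 2 groups alone, here or after H/R, therefore cannot pass the threshold, and the calls concern the 3 groups together.

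Among Mki67, Top2a and Cdk1 no ratio was called. The change after H/R was 0.10 for Mki67/Top2a, 0.15 for Mki67/Cdk1 and 0.05 for Top2a/Cdk1 on the log2 scale. Over the 3 groups the adjusted p was between 0.214 and 0.500 (exact permutation test). Without H/R-DMSO replicate 1, the change of Mki67/Cdk1 was 0.22, and the pair was called over the 3 groups (adjusted p = 0.0255, exact permutation test). In H/R-AS8351 the log2 ratio of Mki67 to Cdk1 was 0.15 higher than in normoxia, and the libraries of those groups did not overlap. The ratio of Pcna to Ccnd1 was 0.27 higher after H/R, with no overlap with normoxia. This pair was not called over the 3 groups (adjusted p = 0.0561, exact permutation test). It was called without replicate 1 (adjusted p = 0.0298) or replicate 3 (adjusted p = 0.0408) of H/R-AS8351 by the same exact permutation test. Leaving out those libraries does not alter the change after H/R itself. With any of the other 7 libraries left out the pair was not called (adjusted p up to 0.153, exact permutation test).

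**Figure D3:**
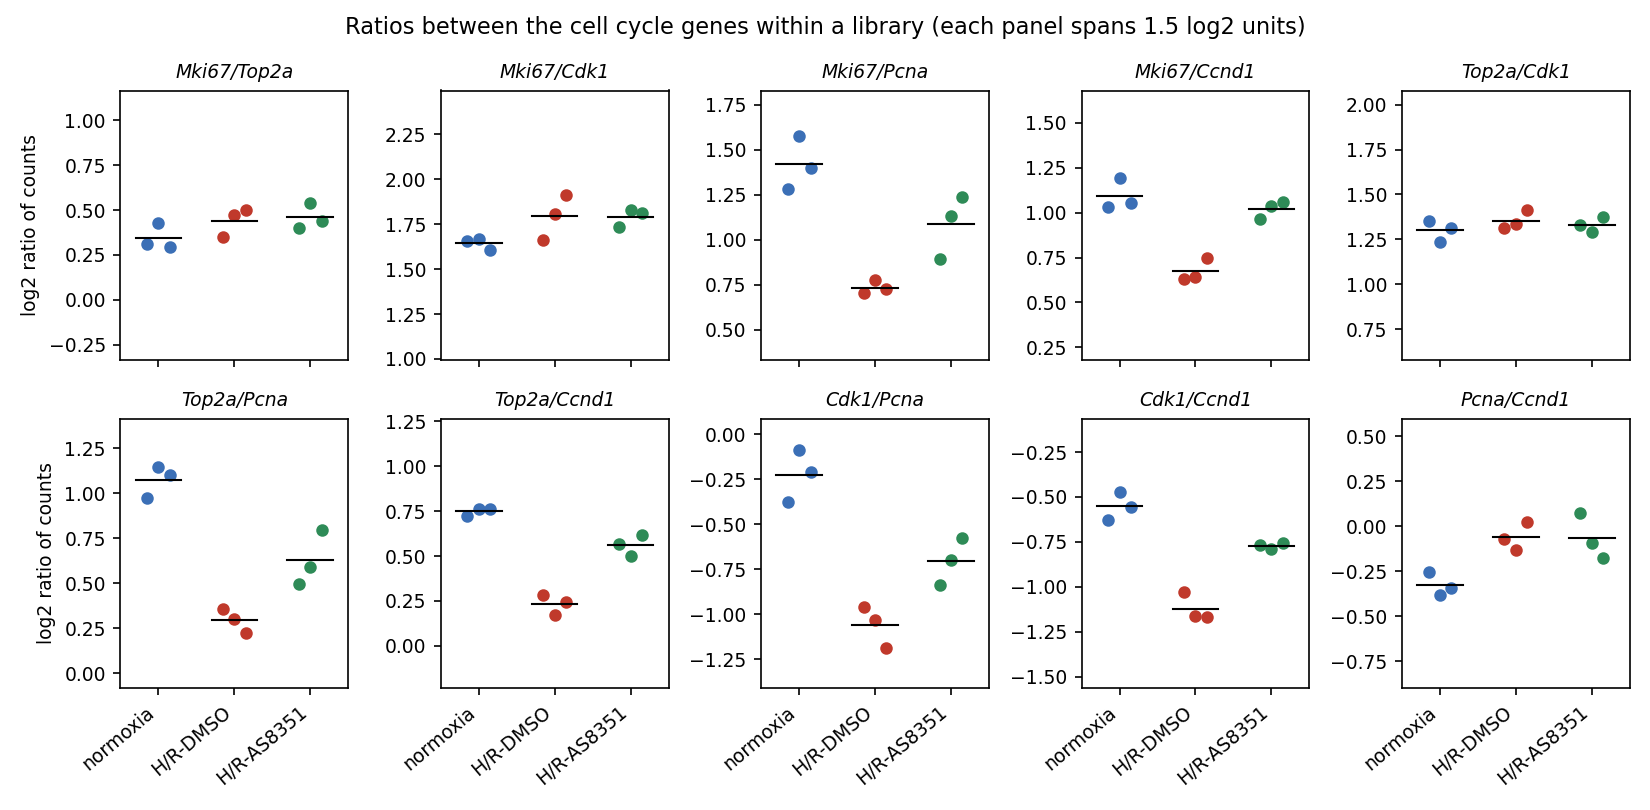
Log2 ratio of counts for the 10 pairs of genes, 1 panel per pair: points are libraries, black lines are group means, and all panels span the same number of log2 units. The 6 pairs of Mki67, Top2a or Cdk1 with Pcna or Ccnd1 dip in H/R-DMSO, while the pairs among Mki67, Top2a and Cdk1 have group means close together.

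The likeness of 2 genes was measured as the root mean square difference of their log2 CPM over the 9 libraries, each gene centred on its own mean, among 13435 genes that were tested and had a mean of at least 1 CPM. Small values mean that genes went up and down by the same amounts. Top2a and Cdk1 differed by 0.0475, which made Top2a the second nearest to Cdk1 and Cdk1 the fourth nearest to Top2a of 13434 genes. Top2a was at rank 105 for Mki67, with a difference of 0.0801, and Cdk1 at rank 218, with 0.0968, where the median gene differed from Mki67 by 0.341. Pcna was at rank 4872 for Mki67 and Ccnd1 at rank 1579. From the side of Pcna, the nearest of the other 4 genes was Ccnd1 at rank 5248.

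The gene nearest to Ccnd1 was ENSRNOG00000018993, with a difference of 0.0264. It went from 280 ± 5.07 CPM (SD, n = 3) in normoxia to 224 ± 1.64 after H/R with DMSO and 223 ± 6.36 with AS8351. The gene nearest to Mki67 was ENSRNOG00000014746, with a difference of 0.0295, at 75.7 ± 0.689 CPM (SD, n = 3) in normoxia, 46.3 ± 0.585 after H/R with DMSO and 56.9 ± 2.41 with AS8351. The first stayed low with AS8351 like Ccnd1, and the second took the order of groups seen for Mki67. Both were picked for the smallest difference over these same libraries, so this likeness follows from the choice. The count tables and the gene table used here do not pair these IDs with a symbol.

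**Figure D4:**
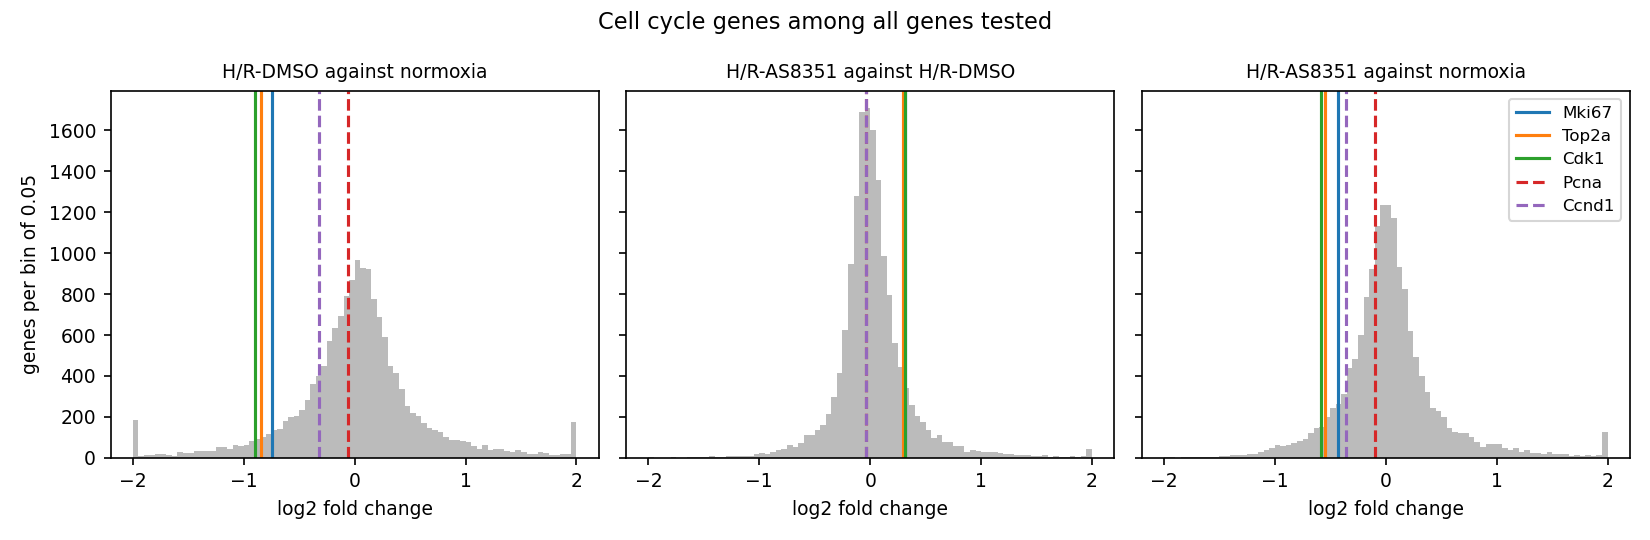
Histograms of the log2 fold changes of all 15879 genes tested in the 3 comparisons, in bins of 0.05 with values past 2 in either direction put in the end bins, and the 5 genes as vertical lines (solid for Mki67, Top2a and Cdk1, dashed for Pcna and Ccnd1). The solid lines lie in the lower tail after H/R, where between 5.77% and 7.75% of genes are lower, and in the upper part with AS8351, where between 11.7% and 12.9% are higher.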

How the data were processed

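RNA of 9 libraries was measured. The authors deposited 1 table of unnormalised counts for each library, by Ensembl gene ID. The submitters' processing notes name the build rn6 and the tools featureCounts 2.0.1, STAR 2.7.3a, Trimmomatic 0.39 and DESeq2 1.32.0. Annotation, strand setting and handling of multi-mapping reads are not given in these sources, so overlapping or antisense genes may share counts. Groups and replicate numbers came from the titles.

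The counts were tested with edgeR 4.0.16 under R 4.3.3: filterByExpr (minimum count 10, minimum total 15) kept 15879 of 30560 genes, libraries were scaled by TMM (factors 0.934 to 1.049), and all 9 libraries entered 1 quasi-likelihood fit of the 3 group means. Benjamini-Hochberg adjustment ran over all genes tested. The SE is the log2 fold change divided by the square root of F. The test was tried on simulated counts. Counts of replicate libraries differed by more than counting error (chi-square per degree of freedom 3.89 to 8.72), so none was treated as a library deposited again, while repeat preparations from 1 culture cannot be told from separate cultures.

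The 5 genes and all lists were chosen with earlier results of these data known. Named genes were the 5 genes, listed genes with a known ID, and the nearest genes by root mean square difference, with at most 2 unnamed IDs per direction. Of 47357 genes in the RefSeq table (GRCr8), 0 carried an Ensembl ID, so symbols of the 5 genes rest on their given IDs and the 4 lists of cell cycle genes and 5 lists of markers were not used. Alternatives were RLE, upper-quartile and total count scaling, no filter, a filter at 1 CPM on the mean, limma-voom (limma 3.58.1), DESeq2 1.42.0, the 2 groups alone, the replicate number as a block, each library left out, and, for ratios, a prior of 1 CPM.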

Additional observations from a re-analysis of the deposited data

How the results depend on the processing

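Of 225 log2 fold changes of the 5 genes under alternatives, 221 kept their direction and their side of the threshold. The other 4 were all of Pcna, which was not called in the main result: total count scaling gave 0.10 after H/R and 0.025 between H/R-AS8351 and normoxia, and leaving out replicate 1 of H/R-AS8351 gave the call of -0.15 against normoxia described above. With a library left out, the Pcna value between the H/R groups ran from -0.091 to 0.011, the latter without replicate 3 of H/R-AS8351. The causes were not tested. The count of called genes among the 5 was 4 after H/R and 3 with AS8351 against H/R-DMSO under all alternatives run, and 4 or 5 for AS8351 against normoxia with a library left out. Over the same alternatives the share of all genes called in that direction ran from 15.8% to 28.2% (lower after H/R), from 9.62% to 15.3% (higher with AS8351) and from 11.2% to 22.9% (lower with AS8351 than in normoxia). The number of genes called over both directions together stayed within 1.5 times in all 45 values. By direction it did not under total count scaling, which gave 7282 higher and 2515 lower after H/R, 2383 lower with AS8351, and 5875 higher and 1786 lower with AS8351 than in normoxia. It also did not without replicate 2 of H/R-AS8351, with 1042 lower with AS8351.

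Of 110 ratio values, 100 kept their side of the threshold. The replicate numbers give no sign of pairing: the correlation of the deviations from group means was at most 0.042 and at least -0.023 where 2 libraries had the same number, and from -0.045 to 0.026 where they did not. With the replicate block, 4, 3 and 4 of the 5 genes were called, beside 25.7% of all genes lower after H/R, 13.9% higher with AS8351 and 20.4% lower with AS8351 than in normoxia. For ratios, the 6 called pairs kept the size of their change, which a block cannot alter here, and were no longer called, with adjusted p of 0.0556 or 0.0926 (exact permutation within numbers), where the smallest unadjusted p it allows is 0.0278.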
